A study of Mus musculus with 6 samples.

Results

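The potassium channel genes of the mouse were taken from the array by name. Every non-control probe whose gene name begins with Kcn, followed by subfamily letters and a member number, was kept, whatever its signal. This gave 170 of 56605 probes, for 92 genes in 20 subfamilies. The tissue was a dissection labelled brainstem/cerebellum, taken at 16 weeks of age. The study compared 3 samples labelled MSA Transgenic with 3 labelled wild type, and both genotypes carry the strain label C57BL/6, 129 and C3H. What MSA stands for, which transgene was used, what drives it, and the sex of the mice are not given in the sources used here. Nor is it given whether each sample was a separate animal, so the p-values below measure the spread between these samples, which may be partly technical. The question was how expression at this age differs between the genotypes, and each sample was hybridised to 1 single-colour array.

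Potassium channels let potassium ions leave or enter cells along their gradient and so set the resting potential, the shape of the action potential and the firing rate. Voltage-gated channels open on depolarisation, calcium- and sodium-activated channels open with those ions inside the cell, inward rectifiers pass current best near rest, and two-pore channels carry the background leak. In cerebellum and brainstem, granule cells, Purkinje cells, basket cell terminals, myelinated axons, astrocytes and microglia each use a different set of them.

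Levels are given as log2 of a probe's signal over the 75th percentile of its array, so that 0 is that percentile. Differences are MSA transgenic minus wild type on this log2 scale, with the standard error of the limma fit (SE, n = 3 per genotype). A probe was tested when every array of one genotype, or of both, had it well above background, and a gene was represented by its tested probe with the highest mean level. On this rule 83 of the 92 genes and 137 of the 170 probes were tested. The chosen probe lay well above background on all 6 arrays for 79 of the 83 genes, while 4 passed through the MSA transgenic arrays alone and 0 through the wild-type arrays alone. These 4 (Kcnk7, Kcnk9, Kcnmb1 and Kcnv1) entered only because they had signal in MSA transgenic samples, and all counts and medians below cover the tested genes. The 9 genes without a tested probe were Kcna10, Kcne1, Kcne3, Kcng3, Kcnj1, Kcnj15, Kcnk5, Kcnk18 and Kcnmb3, each with 1 probe on the array.

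Wild-type replicate 1 stood apart from the other arrays. It was alone on its slide, its 75th percentile of signal was 406 intensity units against 535 to 609 on the other 5 arrays, and 64.8% of its probes lay well above background against 68.6% to 71.7%. It held the highest or the lowest level of the 6 arrays for 59 of the 83 channel genes (71.1%), and for 65.9% of all tested genes. Values without this array, which leave 3 MSA transgenic and 2 wild-type samples from 1 slide, are given beside the genes and lists named below where they differ by more than 1.5 times or in sign. They refer to a gene's chosen probe, and medians over classes of channel include this array.

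No potassium channel gene passed the test between genotypes. With limma and Benjamini-Hochberg adjustment over all 24932 genes, 0 of 83 were called at an adjusted p under 0.05, while 11 genes were called in all (0.0441%). The lowest adjusted p among the channel genes was 0.352, for Kcnk13. At an unadjusted p under 0.05 there were 7 channel genes, 3 higher (Kcnk6, Kcnmb1 and Kcnj2) and 4 lower (Kcnk13, Kcna6, Kcng1 and Kcnab1) in MSA transgenic samples. This was 8.43% of those tested, against 5.86% of all genes, of which 3.15% were higher and 2.71% lower. Of the 3 higher genes, Kcnmb1 was tested only through its MSA transgenic signal. Without wild-type replicate 1 the count was 10 genes, 7 of them higher, or 12% against 8.8% of all genes, and again 0 were called (0.0281% of all genes). The 7 included Kcnmb1 and Kcnk9, both tested only through MSA transgenic arrays.

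Large differences were few, and none was called. The median over the 83 genes was -0.01, against 0.00 over all genes to 2 decimals, with 40 genes above 0 and 43 below. The range ran from -0.82 (Kcng1) to 0.83 (Kcnmb1), and only these 2 genes (2.41%) differed by more than 1.5-fold, against 6.87% of all genes. Kcnmb1 passed the filter only through MSA transgenic arrays. The 95% interval of the difference lay within a 2-fold change either way for 77 of 83 channel genes (92.8%) and for 82.5% of all genes. The central part of the distribution ran from -0.24 at the 10th percentile to 0.28 at the 90th, against -0.23 and 0.41 over all genes. Nearer the centre the channel genes were not the closer to 0. Their quartiles were -0.16 and 0.13, against -0.11 and 0.15 over all genes. The median absolute difference was 0.152, against 0.126 over all genes.

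**Figure D1:**
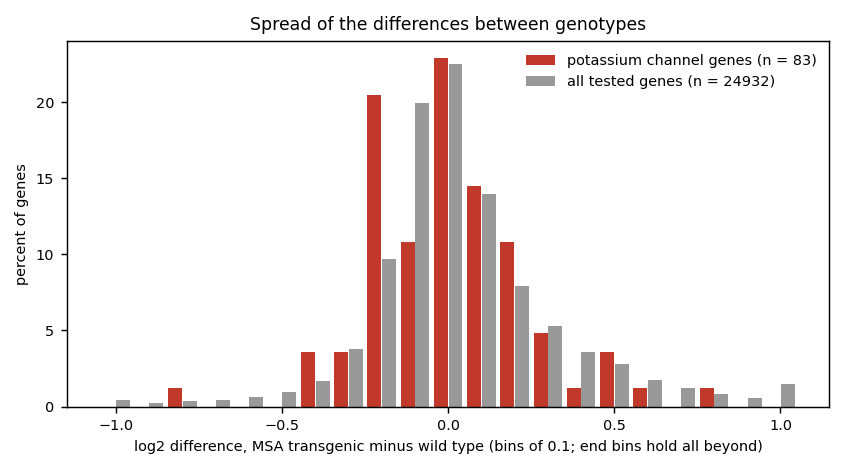
Histogram of the log2 difference (MSA transgenic minus wild type, x axis) as a percentage of genes (y axis), for the 83 tested potassium channel genes (red) and all 24932 tested genes (grey). Both centre near 0, and no channel gene lies beyond -0.82 or 0.83.

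The 3 levels of one genotype lay wholly outside those of the other for 19 channel genes (22.9%), 9 with MSA transgenic samples higher and 10 with them lower. Over all genes this share was 14.9%, with 7.4% higher and 7.5% lower. Without wild-type replicate 1, a comparison added after seeing the data, the groups did not overlap for 28 channel genes (33.7%) against 28.4% of all genes. Among genes whose chosen probe was well above background on all 6 arrays, a count also added after seeing the data, it was 16 of 79 channel genes (20.3%) against 14.9% of all such genes. The highest and lowest differences of each class of channel are described below, beginning with the two-pore channels, in which 6 of 12 tested genes had groups that did not overlap, or 4 of the 10 that were well above background on all 6 arrays.

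**Figure D2:**
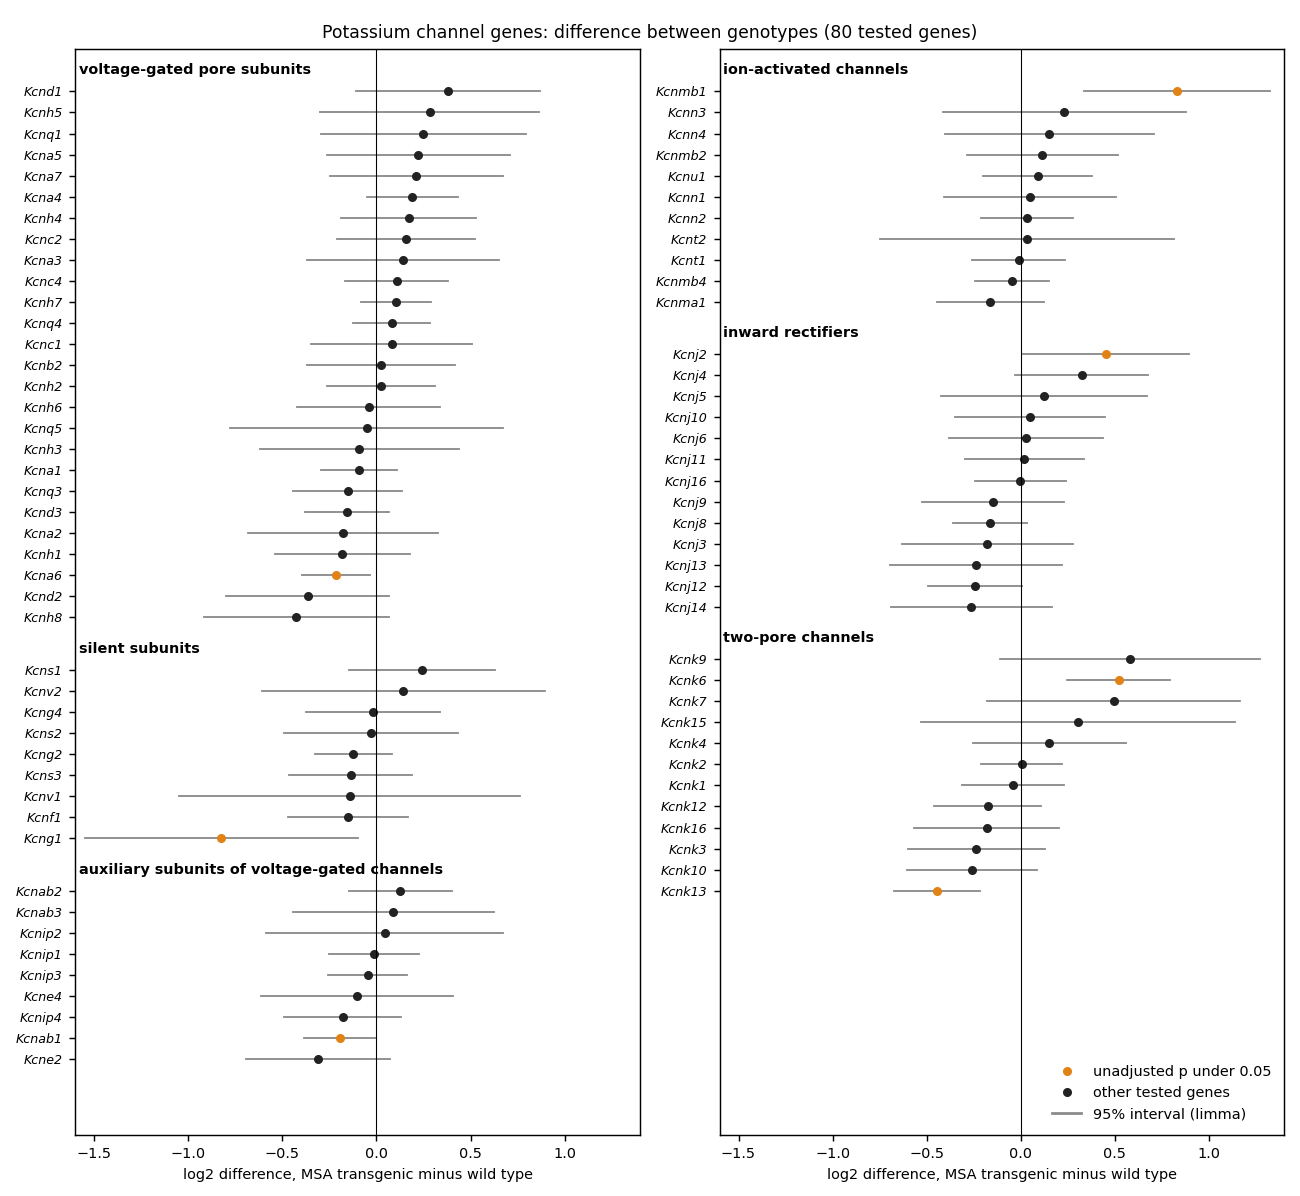
Log2 difference, MSA transgenic minus wild type (x axis), of 80 of the 83 tested potassium channel genes, grouped by class. Points are the limma estimates and lines their 95% intervals. The 7 orange genes had an unadjusted p under 0.05, and no gene shown was called after adjustment.

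Among the two-pore leak channels, Kcnk13 had the lowest difference and Kcnk6 had one of the highest. Kcnk13 encodes the leak channel that keeps the resting potential of microglia. Its log2 levels were 0.59, 0.61 and 0.55 in MSA transgenic samples, against 0.89, 1.1 and 1.1 in wild-type samples. All MSA transgenic values lay below all wild-type values, and the 3 MSA transgenic values were the closer together. The difference was -0.45 ± 0.09, or 1.36-fold lower (limma adjusted p = 0.352), and -0.52 without wild-type replicate 1. Fits with arrays weighted by their quality gave -0.50 with an adjusted p of 0.0458, the only setting to call it. That weighting called 95 genes in all (0.381%) and gave 12 channel genes an unadjusted p under 0.05, against 10.2% of all genes. Over the other alternatives the adjusted p ran from 0.158 to 0.935.

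Kcnk6 encodes a leak channel that in macrophages carries the potassium efflux upstream of the NLRP3 inflammasome. Log2 levels were -1.12, -1.39 and -1.10 in MSA transgenic samples, against -1.80, -1.63 and -1.74 in wild-type samples, again with no overlap. This was a difference of 0.52 ± 0.11, or 1.43-fold (limma adjusted p = 0.386). A second Kcnk6 probe was well above background on all 3 MSA transgenic arrays and 1 wild-type array. It had log2 levels of -5.07, -4.94 and -5.00 in MSA transgenic samples, against -7.30, -5.58 and -6.02 in wild-type samples, a difference of 1.30 ± 0.43. This probe was tested only through its MSA transgenic signal, 2 of its wild-type values were not well above background, and its direction is no independent reading of the gene.

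The probes behind these values are shown by their first 30 of 60 bases, with the position of the whole probe on build mm9 as the files give it. An annotation on mm9 was not used here, so no exon or UTR is named. The set includes both probes of Kcnk15, whose differences had opposite signs.
Kcnk13, chr12:101300820-101300879, plus strand: gagcctggtgcagaggcaactgactattta
Kcnk6, chosen probe, chr7:30007215-30007274, minus strand: tgggaagtgatgactattcctggttctgaa
Kcnk6, second probe, chr7:30010550-30010609, minus strand: ttttctggatgctttctatttctgcttcat
Kcnk15, chosen probe, chr2:163684978-163685037, plus strand: gtctggatgttcatgctagaagcacggaga
Kcnk15, second probe, chr2:163684551-163684610, plus strand: gccacgcatcattgccacagcagcccagac

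Kcnk15 encodes a member of the acid-sensitive branch that forms no working channel by itself. Its chosen probe had log2 levels of -4.13, -3.37 and -2.84 in MSA transgenic samples, against -3.72, -3.51 and -4.02 in wild-type samples, a difference of 0.30 ± 0.33 when each probe was fitted by itself. The groups overlapped widely. The second probe, which lies upstream of it, had levels of -4.03, -4.08 and -4.02 in MSA transgenic samples, against -3.66, -3.58 and -3.64 in wild-type samples. Its groups did not overlap, and its difference was -0.42 ± 0.08. With every probe tested by itself in limma, this was the smallest p of any channel probe, with an adjusted p of 0.343. Of the 137 channel probes 0 were called (0.0286% of all probes), and 10 had an unadjusted p under 0.05 (5.59% of all probes). The direction for Kcnk15 therefore depended on the probe, and the mean of its probes gave -0.06.

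Kcnk9, the leak channel typical of cerebellar granule cells, was well above background on all 3 MSA transgenic arrays but on 1 wild-type array. Its log2 levels were -5.21, -5.07 and -5.05 in MSA transgenic samples, against -6.34, -5.31 and -5.43 in wild-type samples. The difference of 0.58 ± 0.28 was 0.26 without wild-type replicate 1, and -0.11 after normexp background correction. Kcnk1, a widely expressed leak channel, had a difference of -0.04 ± 0.11 with overlapping groups, and of 0.02 without that array. Over the 12 tested two-pore genes the median difference was -0.02 and 6 were above 0. The non-overlapping genes were 3 higher and 3 lower, but 2 of the higher ones, Kcnk7 and Kcnk9, passed the filter only through MSA transgenic arrays and were -0.07 and -0.11 after normexp. The 10 others had 1 higher and 3 lower. Without wild-type replicate 1 there were 7 of 12, against 28.4% of all genes. Chosen after their values were seen, the other non-overlapping genes were Kcnk7 (0.49 ± 0.27), Kcnk3 (-0.24 ± 0.15) and Kcnk10 (-0.26 ± 0.14). In that comparison these 3 were 0.19, -0.08 and -0.15.

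**Figure D3:**
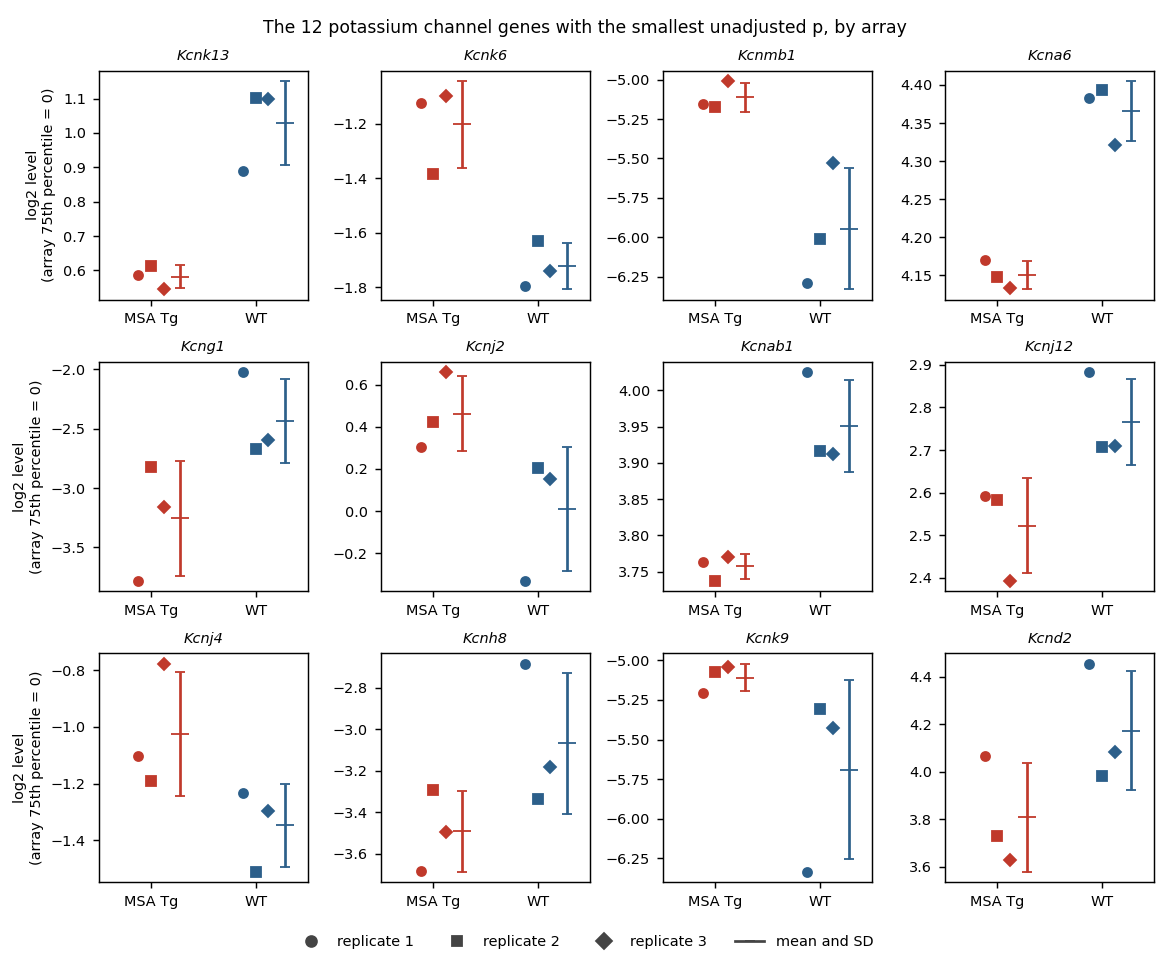
Log2 level (y axis, 0 is the array's 75th percentile, axes differ between panels) in each MSA transgenic (red) and wild-type (blue) sample for the 12 channel genes with the smallest unadjusted p. Markers are replicates, and the bars show the mean and SD. The groups are apart in 10 of the panels and overlap for Kcnh8 and Kcnd2.

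Of the inward rectifiers, Kcnj2 was the highest. It encodes a classical strong inward rectifier found in muscle, neurons and microglia. Log2 levels were 0.31, 0.42 and 0.66 in MSA transgenic samples, against -0.33, 0.20 and 0.15 in wild-type samples. The groups did not overlap, and the lowest value by far was that of wild-type replicate 1. The difference was 0.45 ± 0.18 (limma adjusted p = 0.817), and 0.28 without that array.

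Kcnj4, of the same strong rectifier group, had log2 levels of -1.10, -1.19 and -0.78 in MSA transgenic samples, against -1.23, -1.51 and -1.30 in wild-type samples (difference 0.32 ± 0.14). Its relative Kcnj12 lay the other way, with 2.59, 2.58 and 2.39 in MSA transgenic samples, against 2.88, 2.71 and 2.71 in wild-type samples (difference -0.24 ± 0.10). Neither pair of groups overlapped. Kcnj14, another strong rectifier, had the lowest difference of the class, -0.26 ± 0.17, with overlapping groups.

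The glial inward rectifiers Kcnj10 and Kcnj16, which clear extracellular potassium in astrocytes, showed little difference. Kcnj10 had log2 levels of 5.70, 5.32 and 5.21 in MSA transgenic samples, against 5.52, 5.20 and 5.37 in wild-type samples, a difference of 0.05 ± 0.16 with a 95% interval from -0.35 to 0.45. For Kcnj16 the difference was 0.00 ± 0.10, with an interval from -0.25 to 0.24. Kcnj6, a G protein-gated rectifier of granule cells, had a difference of 0.03 ± 0.17. It was dim, with mean log2 levels of -3.18 in MSA transgenic and -3.21 in wild-type samples. Without wild-type replicate 1 these 3 genes had 0.13, -0.04 and 0.08. Over the 13 tested inward rectifiers the median was 0.00. Groups did not overlap for 4 of them (30.8%), 2 in each direction, against 14.9% of all genes.

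Of the channels opened by calcium or sodium, Kcnmb1 had the highest difference of all 83 genes, at the dim end of the array. It encodes the auxiliary subunit of large-conductance calcium-activated channels in smooth muscle. Levels on the log2 scale were -5.15, -5.18 and -5.01 in MSA transgenic samples, against -6.29, -6.01 and -5.53 in wild-type samples. Only 1 of the wild-type arrays, but all 3 MSA transgenic arrays, had it well above background. The difference was 0.83 ± 0.20, or 1.78-fold (limma adjusted p = 0.506), and -0.08 after normexp background correction.

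The pore-forming subunit that it joins, Kcnma1, was measured by 6 probes. The chosen one had log2 levels of 4.0, 3.86 and 3.94 in MSA transgenic samples, against 4.30, 3.99 and 4.0 in wild-type samples, a difference of -0.16 ± 0.11, and of -0.06 without wild-type replicate 1, which held the highest level. Along the gene, read 5′ to 3′ and with each probe fitted by itself, the 6 probes had differences of 0.39 ± 0.20, -0.53 ± 0.21, -0.14 ± 0.12, -0.24 ± 0.12, -0.24 ± 0.10 and -0.16 ± 0.12. The first was thus positive and the other 5 negative. The second, a probe that spans 6026 bases of the genome, had 1.67, 1.51 and 1.46 in MSA transgenic samples, against 2.53, 1.93 and 1.76 in wild-type samples, without overlap (limma adjusted p = 0.843). The first 30 bases of these 2 probes, which had the highest and the lowest difference of the 6, are shown.
Kcnma1, first probe, chr14:24344084-24344143, minus strand: gccagcatctccttatccctgtcccccaat
Kcnma1, second probe, chr14:24255239-24261264, minus strand: gaaggtactttaggatttttcatcgcaagt

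**Figure D4:**
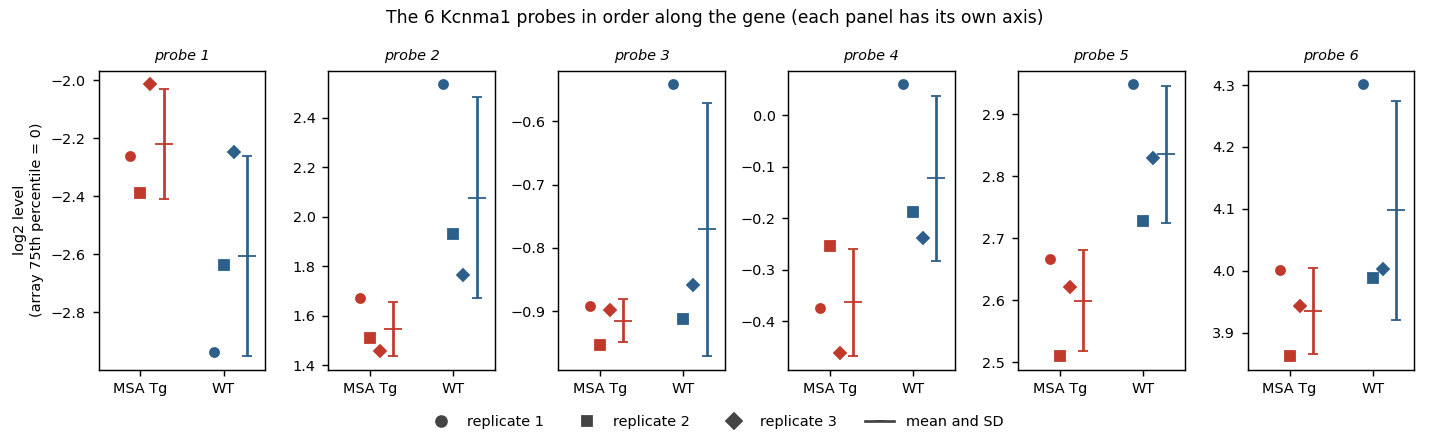
Log2 level (y axis, 0 is the array's 75th percentile, each panel with its own axis) of the 6 Kcnma1 probes, ordered 5′ to 3′ along the gene, in MSA transgenic (red) and wild-type (blue) samples. Markers are replicates, and the bars show the mean and SD. Probe 1 is higher and probes 2 to 6 are lower on average in MSA transgenic samples, and wild-type replicate 1 is the highest array for probes 2 to 6.

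Kcnmb4, the neuronal partner of Kcnma1, had log2 levels of 3.69, 3.59 and 3.62 in MSA transgenic samples, against 3.62, 3.69 and 3.73 in wild-type samples. These overlapped, with a difference of -0.05 ± 0.08, and -0.08 without wild-type replicate 1. All 4 small- and intermediate-conductance genes had differences above 0, from 0.03 ± 0.10 for Kcnn2 to 0.23 ± 0.26 for Kcnn3, and Kcnn4, the form known from blood cells and microglia, had 0.15 ± 0.23. None had an unadjusted p under 0.05, and Kcnn3 and Kcnn4 lay on the other side of 0, at -0.04 and -0.09, without wild-type replicate 1, where Kcnn2 had 0.07. Kcnt1, a sodium-activated channel, had a difference of -0.01 ± 0.10, and of 0.05 without that array. The median over the 11 tested genes of this class was 0.05.

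The voltage-gated pore subunits, with 29 of 30 genes tested, held 1 gene at an unadjusted p under 0.05, against 5.86% of all genes. That gene was Kcna6, of the Shaker family whose members line the axon beside the nodes of Ranvier and fill basket cell terminals. Its log2 levels were 4.17, 4.15 and 4.13 in MSA transgenic samples, against 4.38, 4.39 and 4.32 in wild-type samples. The groups did not overlap, with a difference of -0.22 ± 0.07 (limma adjusted p = 0.783). A second Kcna6 probe had -0.05 ± 0.17, and the mean of both probes gave -0.13.

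Kcna1 and Kcna2, the main pore subunits at those axonal sites, were not separated from 0 by the fit. Kcna1 had log2 levels of 4.92, 4.77 and 4.88 in MSA transgenic samples, against 5.0, 4.93 and 4.93 in wild-type samples, a difference of -0.09 ± 0.08 without overlap. For Kcna2 the levels were 1.43, 1.31 and 1.32 in MSA transgenic samples, against 1.99, 1.28 and 1.32 in wild-type samples. Its difference of -0.18 ± 0.20 came with wild-type replicate 1 far above the other 5 arrays, and was 0.05 without it. Kcna3, known from T cells and microglia, had 0.14 ± 0.21, and Kcna5, a delayed rectifier, had 0.22 ± 0.20. Without that array they were 0.29 and 0.14.

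Of the fast-repolarising channels, Kcnc1, found in granule cells, had a difference of 0.08 ± 0.17, and Kcnc2, the form of fast-spiking interneurons, had 0.16 ± 0.15. Without wild-type replicate 1 they were -0.08 and 0.31.

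The A-type channel Kcnd2, which sets the firing threshold of granule cells, had log2 levels of 4.07, 3.73 and 3.63 in MSA transgenic samples, against 4.45, 3.98 and 4.08 in wild-type samples. The groups overlapped, and its difference of -0.36 ± 0.18 was -0.22 without wild-type replicate 1. Kcnd1 of the same subfamily lay the other way at 0.38 ± 0.20, without overlap, and at 0.17 without that array.

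Kcnq3, a subunit of the M-current that restrains repetitive firing, had a difference of -0.15 ± 0.12. It was dim, with mean log2 levels of -3.75 in MSA transgenic and -3.60 in wild-type samples. In the ether-a-go-go family, Kcnh8 was lowest at -0.42 ± 0.20 and Kcnh5 highest at 0.28 ± 0.24, and both were nearer 0 without wild-type replicate 1, at -0.23 and 0.12. Kcnh1 had -0.18 ± 0.14. Kcnq3 and Kcnh1 were -0.10 and -0.05 without that array. Over the 29 genes the median was 0.02, with 15 above 0 and 14 below.

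Kcnq1, the epithelial and cardiac member of the Kcnq subfamily, had a probe pair that overlaps on the genome, the only such pair among the channel probes. Their sequences share 51 bases, and the 2 gave differences of 0.25 ± 0.22 and 0.13 ± 0.26. The capitals mark the stretch of the shared bases that falls in the first 30 of each probe.
Kcnq1, chosen probe, chr7:150612887-150612946, plus strand: aatttcgtaGTATGATCTTGATTGAGAGAC
Kcnq1, overlapping probe, chr7:150612896-150612955, plus strand: GTATGATCTTGATTGAGAGACttttccaaa
Farther upstream, another Kcnq1 probe had -0.41 ± 0.31, and one more, above background on 3 MSA transgenic arrays and 2 wild-type arrays, had 0.86 ± 0.79. Neither was separated from 0 by its error.

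The silent subunits form no channel alone and alter the gating of Kcnb channels when they join them. Kcng1 had the lowest difference of all 83 genes. Its log2 levels were -3.78, -2.82 and -3.16 in MSA transgenic samples, against -2.03, -2.67 and -2.59 in wild-type samples, apart by a narrow margin and with a wide spread in both genotypes. The difference was -0.82 ± 0.29, or 1.77-fold lower (limma adjusted p = 0.812), and -0.52 after normexp background correction. Kcng4 had -0.02 ± 0.14, and Kcns1 and Kcns3 had 0.24 ± 0.16 and -0.14 ± 0.13. Without wild-type replicate 1, Kcng4 lay on the other side of 0 at 0.09, and Kcns1 was 0.08. Of the 9 tested silent subunits 7 had differences below 0, and the median was -0.12.

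The auxiliary subunits include the cytoplasmic beta subunits, the calcium-sensing Kcnip proteins and the small Kcne proteins. Kcnab1, which gives Kcna channels fast inactivation, had log2 levels of 3.76, 3.74 and 3.77 in MSA transgenic samples, against 4.02, 3.92 and 3.91 in wild-type samples. The groups were tight and apart, by -0.19 ± 0.08 (limma adjusted p = 0.817). Kcnab2, which escorts Kcna channels to the axon, had 0.13 ± 0.11, and 0.02 after normexp background correction. Its probe was dimmer, with mean log2 levels of -2.08 in MSA transgenic and -2.21 in wild-type samples. Kcnip4, a Kcnd2 partner, had -0.18 ± 0.13, and Kcnip2, with 0.04 ± 0.26, had 0.34 without wild-type replicate 1, where Kcnip4 had -0.10. Kcnip2 was dim, with mean log2 levels of -3.82 in MSA transgenic and -3.87 in wild-type samples, and was -0.11 after normexp. The median over the 9 tested genes was -0.05.

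Kcne2 and Kcnj13 are channel genes of the choroid plexus, the tissue that makes cerebrospinal fluid. Kcne2 had log2 levels of 1.27, 1.4 and 1.47 in MSA transgenic samples, against 1.86, 1.84 and 1.38 in wild-type samples, a difference of -0.31 ± 0.16. For Kcnj13 the difference was -0.24 ± 0.19, and -0.09 without wild-type replicate 1. Both pairs of groups overlapped. The choroid plexus marker list had a median of -0.03 over 5 genes.

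Grouped by the cells in which they are known, the channels linked to microglia lay in both directions. Of Kcnk13, Kcnk6, Kcna3, Kcnn4 and Kcnj2, 2 were higher and 1 was lower at an unadjusted p under 0.05, against 5.86% of all genes in both directions, and 0 were called. These 5 were listed with earlier results of these data known. Their median was 0.15, and 0.28 without wild-type replicate 1, where Kcnn4 was below 0. The 0.15 was the value of Kcnn4, which was dim, with mean log2 levels of -3.43 in MSA transgenic and -3.58 in wild-type samples. Those of Kcna3 were -3.80 and -3.94. After normexp background correction Kcna3 and Kcnn4 were -0.06 and -0.09, where the median of all genes was -0.05. Kcnk13, Kcnk6 and Kcnj2 were then -0.41, 0.37 and 0.41. Beside these channels, all 10 microglia markers were higher on average in MSA transgenic samples, with a median of 0.54 and 0 called. Of the 10, 8 had an unadjusted p under 0.05, against 3.15% of all genes that were higher at that threshold. P2ry12 had the smallest difference, 0.05 ± 0.15 with overlapping groups, and -0.08 without wild-type replicate 1. The mean of the centred marker levels ran from 0.17 to 0.36 over MSA transgenic arrays, and from -0.27 to -0.25 over wild-type arrays. More microglia and more RNA per microglial cell cannot be told apart in RNA from whole tissue. Kcnk13 thus lay opposite in sign to the median of these markers and Kcnk6 and Kcnj2 on the same side, and the part of the cell mixture in these differences was not tested.

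Mature oligodendrocyte markers were lower in 7 of 8 cases, with a median of -0.29 and 0 called by limma. Of the 7, 4 had an unadjusted p under 0.05, against 2.71% of all genes that were lower at that threshold. Their mean centred level was -0.19 to -0.06 over MSA transgenic arrays, against 0.06 to 0.23 over wild-type arrays. The 6 granule cell markers were all below 0 with a median of -0.22, and the 6 Purkinje cell markers had a median of -0.15. In each of these 2 lists 0 genes had an unadjusted p under 0.05, against 5.86% of all genes. Without wild-type replicate 1 the granule cell marker Cbln3 was above 0, at 0.01, and the medians were -0.17 and -0.14. The part of these cell types in the channel differences was not tested.

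Other marker lists bear on the dissection. Forebrain neuron markers had a median of 0.43, with a mean centred level of 0.12 to 0.53 over MSA transgenic arrays against -0.84 to -0.03 over wild-type arrays, and 2 of the 4 genes lay well above background on all 6 arrays. Their median without wild-type replicate 1 was 0.19. Brainstem neuron markers had a median of -0.21, with -0.57 to 0.15 over MSA transgenic arrays against -0.12 to 0.24 over wild-type arrays. Astrocyte and endothelial lists had medians of -0.06 and -0.11, and of 0.01 and -0.04 without that array. Within the astrocyte list 5 of 7 genes were below 0. Of these 5, Aldh1l1 and Aqp4 were above 0 without wild-type replicate 1, at 0.01 and 0.06. Gfap, the filament protein of reactive astrocytes, had a difference of 0.59 ± 0.11 with groups apart (limma adjusted p = 0.277). Slc1a2 had groups apart in the other direction, at -0.23 ± 0.12, and -0.15 without wild-type replicate 1. Defining markers of granule cells, Purkinje cells and brainstem neurons were well above background on all 6 arrays.

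A list of channel partners holds genes whose names do not match the rule used for the channel genes. Many encode proteins that bind, place or resemble potassium channels, and others include Kctd8 and the noncoding Kcnq1ot1. Of 25 genes 22 were tested, 0 were called by limma and 2 had an unadjusted p under 0.05, against 5.86% of all genes. Hcn2, a pacemaker channel opened by hyperpolarisation, had log2 levels of 4.17, 4.26 and 4.40 in MSA transgenic samples, against 4.0, 4.0 and 3.94 in wild-type samples. The groups were apart, with a difference of 0.30 ± 0.09 (limma adjusted p = 0.703).

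Kctd8, an auxiliary subunit of GABA-B receptors, had log2 levels of 0.66, 0.60 and 0.52 in MSA transgenic samples, against 1.16, 0.78 and 0.82 in wild-type samples. This was a difference of -0.33 ± 0.13, and -0.20 without wild-type replicate 1. The lowest of the list was Kcnq1ot1, the noncoding RNA transcribed within the Kcnq1 locus, at -0.34 ± 0.18, and Kcnrg, a soluble protein that hampers channel assembly, had -0.18 ± 0.09, and -0.11 without that array. The median over the 22 partners was -0.05, and -0.01 without it.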

How the data were processed

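Total RNA from 6 samples was labelled with Cy3 and hybridised to Agilent mouse arrays, 1 per sample, per the labels. Per the file headers, the deposited spot values are intensity values, background-subtracted by Feature Extraction 10.7.1.1 on build mm9 (9.5.1.1 per the submitters' processing notes). The authors also deposited a table of normalized intensity values (column median 59.9, linear, uncentred), used as an alternative.

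The log2 processed signal minus each array's log2 75th percentile was used. Control spots and outlier spots (39 to 84 an array) were dropped, 0 spots were saturated, and a probe's spots were averaged. Of 170 channel probes, 145 matched RefSeq (GRCm38.p6, names only) by accession and 25 by symbol. Probes that every array of a genotype had well above background were tested with limma 3.58.1 (R 4.3.3, lmFit and eBayes, called at an adjusted p under 0.05), after tests on simulated data. The number of arrays limits the precision.

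The genes and lists were chosen with earlier results of these data known. Genes named are some fixed by role (a few of these are not reported here), the 12 smallest p, each subfamily's extremes, genes whose probes differ by over 0.5 and, of the partners, the 4 smallest p and the ends of the range. Others are stated to be chosen after their values were seen, or stand in counts. Alternatives covered background correction, scaling, filter, value table, slide, variance model, probe choice and leaving out samples. Replicate numbers only name samples.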

Additional observations from a re-analysis of the deposited data

How the results depend on the processing

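No paired analysis was run, because the labels state no pairing of samples. Their titles carry 6 different numbers, which the labels do not relate to each other. Over all genes, limma called 11 genes, against 29 after normexp (19 of them higher), 6 with no filter on dim probes, 23 when all 6 arrays had to be well above background, 7 with slide as a block, 27 with an intensity trend, 24 when a gene's probes were averaged and 95 with array weights. Leaving out 1 sample gave 0 to 7, and each of the 6 samples lowered the count by over 1.5 times. The 0 came without MSA transgenic replicate 2, where 1193 genes had an unadjusted p under 0.05. Channel genes called were 1 with array weights (Kcnk13, adjusted p = 0.0458) and 0 in the other settings, leaving out samples included (0 to 0). Channel genes at an unadjusted p under 0.05 numbered 7, against 12 with array weights (10.2% of all genes there) and 4 to 10 on leaving out 1 sample, the 4 coming without MSA transgenic replicate 2 or 3. The median difference was -0.012, against -0.079 after normexp, where the median of all genes was -0.048, and -0.035 to 0.012 on leaving out 1 sample. Quantile normalization and the authors' value table each kept 11 calls and 7 channel genes at an unadjusted p under 0.05. Of 734 alternative values for the 46 named genes, 725 moved by less than the replicate SD with no change of call. Wild-type replicate 1 was alone on its slide, so slide as a block gave the same fit as leaving it out. Values of that fit were counted under both settings. Sign changes without a call numbered 64 among these 734 values. Among the 21 named genes with a difference of at least 0.2, 8 values changed sign. These were Kcnk9 (-0.11), Kcnmb1 (-0.08), Kcnn3 (-0.04) and Kcnq1 (-0.01) after normexp, Kcnn3 with slide as a block (-0.04), array weights (-0.07) and without wild-type replicate 1 (-0.04), and Kcnk15 with the mean of its probes (-0.06). The cause was not tested.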

Other observations

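Kcnk18, a leak channel gene known from sensory neurons, was not tested. Chosen after its values were seen, its probe had log2 levels of -8.26, -8.28 and -3.31 in MSA transgenic samples, against -7.77, -8.18 and -7.95 in wild-type samples. It lay well above background on MSA transgenic replicate 3 alone.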
